A study of Mus musculus with 8 samples.

Results

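Retinoid signalling genes carry vitamin A derivatives from synthesis through binding to degradation. The 9 genes described here are the entries of the deposited count table named Aldh1a1, Aldh1a3, Crabp1, Crabp2, Rara, Rarb, Rarg, Rxra and Cyp26b1, out of 24909 entries in all. They were measured by RNA sequencing in 8 libraries of ASZ001, a mouse basal cell carcinoma cell line, in a series on the transition of basal into squamous cell carcinoma. The 4 groups hold 2 libraries each: Tgfbr1 knockdown cells with RasV12 (genotype label TGFbR1kd_RasV12, Dox-4OHT), non-silencing (NS) shRNA cells with RasV12 (label RasV12, Dox-4OHT), knockdown cells with DMSO (TGFbR1kd), and NS cells with DMSO (control). Tgfbr1 encodes the type I TGF-beta receptor, and RasV12 is an activated Ras. The agents are doxycycline and 4-hydroxytamoxifen by their usual abbreviations. No group received them without RasV12, so drug and Ras effects cannot be told apart, and "RasV12 response" below covers both. All groups come from 1 cell line, and whether the libraries of a group are separate cultures is not stated. The p-values therefore reflect the scatter of these libraries alone, which may be technical.

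Retinol enters cells through Stra6 in some tissues, is oxidised to retinal by retinol dehydrogenases such as Rdh10, and is regenerated from retinal by Dhrs3. Retinaldehyde dehydrogenases (Aldh1a1, Aldh1a3) make retinoic acid, the cellular binding proteins Crabp1 and Crabp2 carry it, and Cyp26b1 oxidises it to less active products. Retinoic acid binds the nuclear receptors Rara, Rarb and Rarg, which pair with Rxra and other RXRs on direct repeats in DNA. In skin, retinoids are known for restraining keratinising differentiation, and Rarg and Rxra are known as the main epidermal receptors. Transcription of Rarb, Cyp26a1, Cyp26b1, Dhrs3 and Stra6 is known to be induced by retinoic acid in various cell types.

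The promoters of the pair of members with the largest relative differences between groups are shown, and were searched for the kind of site on which retinoic acid receptors are known to bind. Of the 9 members, 7 have a promoter in the RefSeq table (build GRCm38.p6); the 250 bases before each start site were read. The search was for direct repeats, on either strand, of hexamers spaced by 1, 2 or 5 bases. A hexamer was the consensus AGGTCA or a variant of it, namely AGTTCA and also GGGTCA and also GGTTCA, in any combination. Rarb alone among the 7 had one, a repeat spaced by 5 bases, on the strand of the gene, from 53 to 37 bases before the start (chr14:16575513-16575529). It is in capitals in the Rarb window, which lies on the minus strand at chr14:16575477-16575726. The Cyp26b1 window, on the minus strand at chr6:84593811-84594060, is shown for comparison and holds none of the repeats searched, which says nothing of sites elsewhere. Both windows run 5′ to 3′ towards the start site.
Rarb: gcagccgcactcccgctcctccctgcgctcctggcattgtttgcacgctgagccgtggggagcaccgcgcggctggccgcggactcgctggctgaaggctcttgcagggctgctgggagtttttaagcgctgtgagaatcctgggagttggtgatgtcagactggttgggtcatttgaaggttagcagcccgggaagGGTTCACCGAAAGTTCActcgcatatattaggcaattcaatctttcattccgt
Cyp26b1: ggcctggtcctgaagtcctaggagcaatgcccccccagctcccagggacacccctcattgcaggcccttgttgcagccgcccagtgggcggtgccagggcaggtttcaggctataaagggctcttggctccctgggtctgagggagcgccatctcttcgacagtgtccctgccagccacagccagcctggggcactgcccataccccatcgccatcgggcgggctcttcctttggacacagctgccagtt
The repeat spaced by 5 bases occurred in 0.0883% of all 32851 promoters in the table, and those spaced by 1 and 2 bases in 0.164% and 0.174%. Counted by gene, these were 0.104%, 0.196% and 0.204% of 27025 genes. Of 36 genes made up of the members and the retinoic acid target list, 23 had a promoter and 2 had such a repeat. The other is Cyp26a1, which encodes another retinoic acid hydroxylase, with its repeat on the opposite strand from 32 to 16 bases before the start (chr19:37697776-37697792), and the pair of repeats read as follows.
Rarb repeat: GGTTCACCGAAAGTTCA
Cyp26a1 repeat: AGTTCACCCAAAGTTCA
Neither gene was abundant. Rarb is described among the receptors, and Cyp26a1 had 2 counts in total, both in 1 NS RasV12 library.

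The libraries held 12724325.5 to 16233011 counts, and 12538 genes passed the count filter. Tgfbr1 had 8.86 and 9.42 CPM (counts scaled to library size) in knockdown RasV12 libraries, 104 and 91.6 in NS RasV12, 10.2 and 8.08 in knockdown DMSO and 77.1 and 80.4 in NS DMSO libraries, low in every library labelled as knockdown. All 11 keratinocyte and basal carcinoma markers were detected. Markers of other cell types summed to 1.73 to 4.47 CPM for fibroblasts (Lum, Col3a1 and Fap at 0), 0.110 to 3.17 for immune cells (Cd3e and Adgre1 among those at 0), 23.0 to 38.3 for endothelial cells and 32.5 to 57.7 for pigment cells (Tyr and Dct at 0). Most of the endothelial sum was Pecam1 (22.4 to 37.0 CPM), and most of the pigment sum was Mitf (29.2 to 53.3 CPM). The immune marker Csf1r had 2.22 and 3.05 CPM in knockdown RasV12 libraries, and 0.0386 and 0.0366 in NS RasV12.

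Of the 9 members, Cyp26b1, Rara, Rarg and Rxra passed the filter and were tested. The other 5 were below it in every group and are described by their counts. Per length, which allows levels of different genes to be compared, Rarg was the most abundant member in NS DMSO cells at 59.9 CPM per kilobase, above 89.4% of tested genes. Rxra followed at 40.9, Cyp26b1 at 20.4 and Rara at 9.20 CPM per kilobase, against a median of 11.7 over tested genes. Crabp2, Rarb and Aldh1a3 stood at 0.333, 0.167 and 0.114 CPM per kilobase. Of the members, the receptors Rarg, Rxra and Rara had moderate to high RNA levels, while RNA of the retinoic acid synthesising enzymes and carriers among the members was at or near 0.

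Cyp26b1, which breaks down retinoic acid, showed the largest changes of the members. It had 20.8 and 19.0 CPM in the knockdown RasV12 libraries, 33.6 and 27.8 in NS RasV12, 35.4 and 31.3 in knockdown DMSO and 103 and 90.2 in NS DMSO. Both NS DMSO libraries were far above the other 6, both knockdown RasV12 libraries were below all others, and the middle groups overlapped. Under DMSO it averaged 33.4 ± 2.84 CPM in knockdown cells and 96.7 ± 9.18 CPM in NS cells (SD, n = 2 each), 2.91-fold lower (log2 change −1.54 ± 0.09 SE, adjusted p = 1.15e-09, edgeR's quasi-likelihood test, Benjamini-Hochberg; the same test gave every adjusted p here). In NS cells, RasV12 libraries averaged 30.7 ± 4.14 CPM, 3.16-fold lower than DMSO libraries (−1.66 ± 0.09, adjusted p = 1.62e-09); 1.91% of tested genes had a larger change in either direction. Under RasV12 the knockdown was again lower than NS, by 1.54-fold (−0.62 ± 0.12, adjusted p = 0.000364). Within knockdown cells, RasV12 libraries averaged 19.9 ± 1.24 CPM, 1.67-fold lower than DMSO libraries (−0.74 ± 0.11, adjusted p = 0.000157). In bulk RNA, fewer cells expressing a gene and less of its RNA per cell cannot be told apart.

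The RasV12 and knockdown falls of Cyp26b1 did not add up on the log2 scale. Knockdown with RasV12 differed from NS with DMSO by −2.28 ± 0.10 (log2, adjusted p = 2.4e-11), whereas the sum of the single changes was −3.20. The difference, the interaction of RasV12 with the knockdown (the RasV12 response of knockdown cells minus that of NS cells), was 0.92 ± 0.15 (adjusted p = 0.000219). Knockdown alone and RasV12 alone gave levels that did not differ beyond their spread (log2 difference 0.12, 95% interval −0.11 to 0.35, adjusted p = 0.369). Each of these Cyp26b1 calls held its side of the threshold under every alternative tried. The summed keratinocyte and basal markers were also highest in NS DMSO and lowest in knockdown RasV12 libraries, with 17694 to 18307 CPM in knockdown RasV12, 18566 to 19020 in NS RasV12, 22207 to 23455 in knockdown DMSO and 35739 to 36001 in NS DMSO. The markers did not all follow their sum. Of the 11, 7 (Krt5, Krt14, Krt15, Krt17, Itgb4, Col17a1 and Gli1) had both NS DMSO libraries above all others, 3 (Trp63, Gli2 and Ptch1) had both below all others, and Itga6 had neither. Their part in the Cyp26b1 result was not tested.

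**Figure D1:**
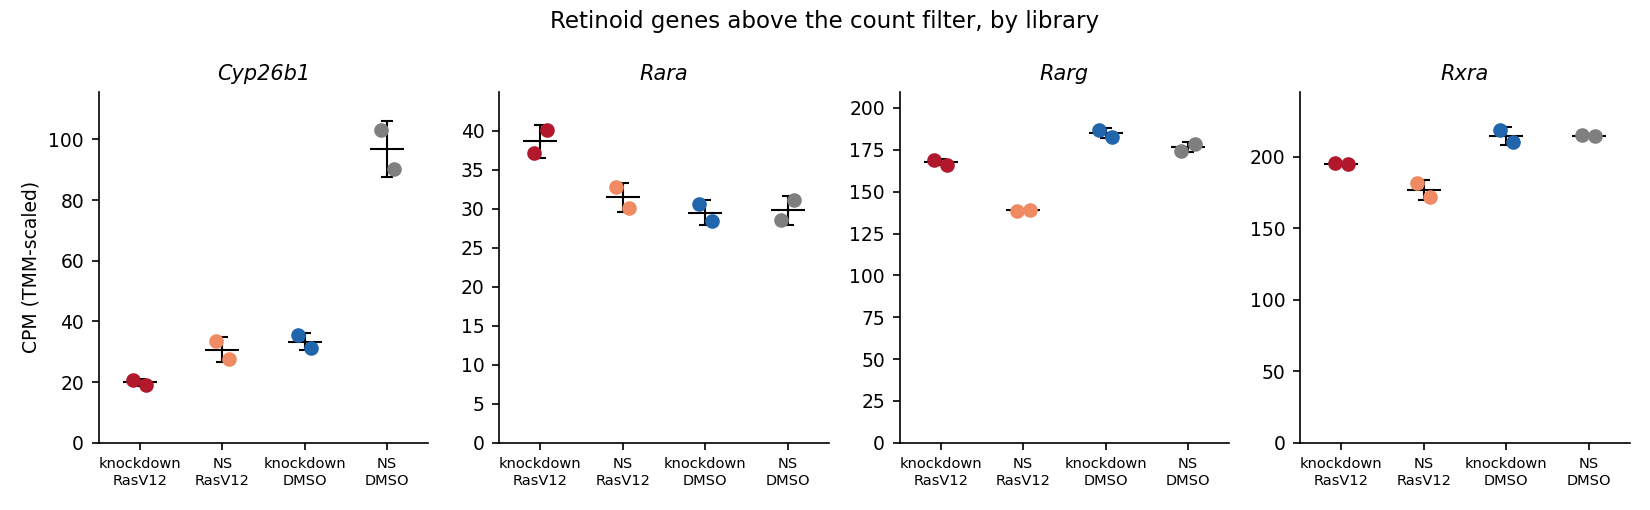
CPM (y axes, each from 0) of the 4 members above the count filter, in 8 libraries by group (x axes); points are libraries, horizontal marks the means and bars the SD of 2 libraries. Cyp26b1 lies at 90.2 and 103 CPM in the NS DMSO libraries and at or below 35.4 in all others, while Rara is highest in the knockdown RasV12 libraries (37.2 and 40.2) and Rarg lowest in the NS RasV12 libraries (138 and 139).

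Rara, the receptor found in most tissues, was highest in knockdown cells with RasV12. It had 37.2 and 40.2 CPM in the knockdown RasV12 libraries, 32.8 and 30.2 in NS RasV12, 30.6 and 28.4 in knockdown DMSO and 28.5 and 31.1 in NS DMSO. The knockdown RasV12 libraries stood above the other 6, which overlapped between groups. Under RasV12, Rara averaged 38.7 ± 2.10 CPM in knockdown and 31.5 ± 1.84 CPM in NS cells (log2 change 0.30 ± 0.08, adjusted p = 0.00133). Within knockdown cells it was higher with RasV12 than with DMSO (0.39 ± 0.08, adjusted p = 0.000183), and knockdown RasV12 also exceeded NS DMSO (0.38 ± 0.07, adjusted p = 7.69e-05). Neither the knockdown under DMSO (−0.01, 95% interval −0.17 to 0.15, adjusted p = 0.897) nor RasV12 in NS cells (0.08, 95% interval −0.08 to 0.24, adjusted p = 0.439) changed it beyond the spread. The interaction was 0.31 ± 0.11 (adjusted p = 0.0255), but not past the threshold with DESeq2 (adjusted p = 0.158) or without any 1 of the 4 libraries numbered 2 (0.24 to 0.26 in log2, adjusted p from 0.106 to 0.134).

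Rarg, the receptor known as the main RAR of epidermis, was lowest in NS cells with RasV12. Its levels were 169 and 166 CPM in the knockdown RasV12 libraries, 138 and 139 in NS RasV12, 187 and 183 in knockdown DMSO and 174 and 179 in NS DMSO, with no overlap between any groups. RasV12 in NS cells lowered Rarg to 139 ± 0.551 CPM, against 177 ± 3.09 CPM under DMSO (log2 change −0.35 ± 0.04, adjusted p = 4.56e-08). In knockdown cells the fall was smaller, to 168 ± 1.91 CPM under RasV12, against 185 ± 2.95 CPM under DMSO (−0.14 ± 0.04, adjusted p = 0.00477; 0.0842 with DESeq2). The interaction was 0.20 ± 0.06 (adjusted p = 0.00426) and stayed past the threshold under all alternatives. Under RasV12 the knockdown was higher than NS (0.27 ± 0.04, adjusted p = 1.29e-06), and under DMSO the difference was 0.07 (95% interval −0.01 to 0.15, adjusted p = 0.128). Knockdown with RasV12 and NS with DMSO, the middle groups, differed by −0.07 (95% interval −0.15 to 0.00, adjusted p = 0.091).

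Rxra, the shared partner of the RARs and of several other nuclear receptors, changed little. It had 195 and 195 CPM in the knockdown RasV12 libraries, 182 and 172 in NS RasV12, 219 and 210 in knockdown DMSO and 215 and 214 in NS DMSO. All RasV12 libraries were below all DMSO libraries, and the DMSO groups overlapped. In knockdown cells the RasV12 response was −0.14 ± 0.04 (adjusted p = 0.00746; 0.098 with DESeq2 and 0.0624 without the first knockdown DMSO library). In NS cells it was −0.28 ± 0.04 (adjusted p = 1.38e-06). Under RasV12 the knockdown was higher than NS by 0.14 ± 0.04 (adjusted p = 0.00269), while under DMSO the difference was −0.0020 (95% interval −0.08 to 0.08, adjusted p = 0.967). The interaction of 0.15 ± 0.06 (adjusted p = 0.0375) missed the threshold with DESeq2 (0.162), without the count filter (0.0518) and without 6 of the 8 libraries 1 at a time (0.0806 to 0.187). The RasV12 libraries carried more reads of the ribosomal RNA entry Rn45s (0.916% to 2.76% of counts) than the DMSO libraries (0.388% to 1.36%), with overlap; leaving that entry out changed no call of a member.

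The tested members are read against how many genes changed at all. Under DMSO the knockdown lowered 1 of the 4 (Cyp26b1) and raised none, where 61.9% of all 12538 genes were called in either direction and 31.0% as lower. Under RasV12 the knockdown raised 3 and lowered 1, against 60.2% of all genes called, 30.5% as higher. RasV12 lowered 3 of 4 in NS cells (42.1% of all genes called, 21.3% as lower) and, in knockdown cells, lowered those 3 and raised Rara (36.1% called, 16.6% as lower). The interaction was called and positive for 4 of 4 (38.2% of all genes called, 20.2% as positive), 2 of them not stably as given above. Against NS DMSO, knockdown with RasV12 raised 1 and lowered 2 (64.9% called, 32.1% as higher and 32.8% as lower), and the single treatments differed in 2 (54.9% called). These comparisons share libraries, so the 4 genes' patterns are not independent across them. A change of at least 2-fold past the test was less common, at 10.7% of genes for the knockdown under DMSO and 4.24% for RasV12 in NS cells, and Cyp26b1 was the one member with it in each.

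**Figure D2:**
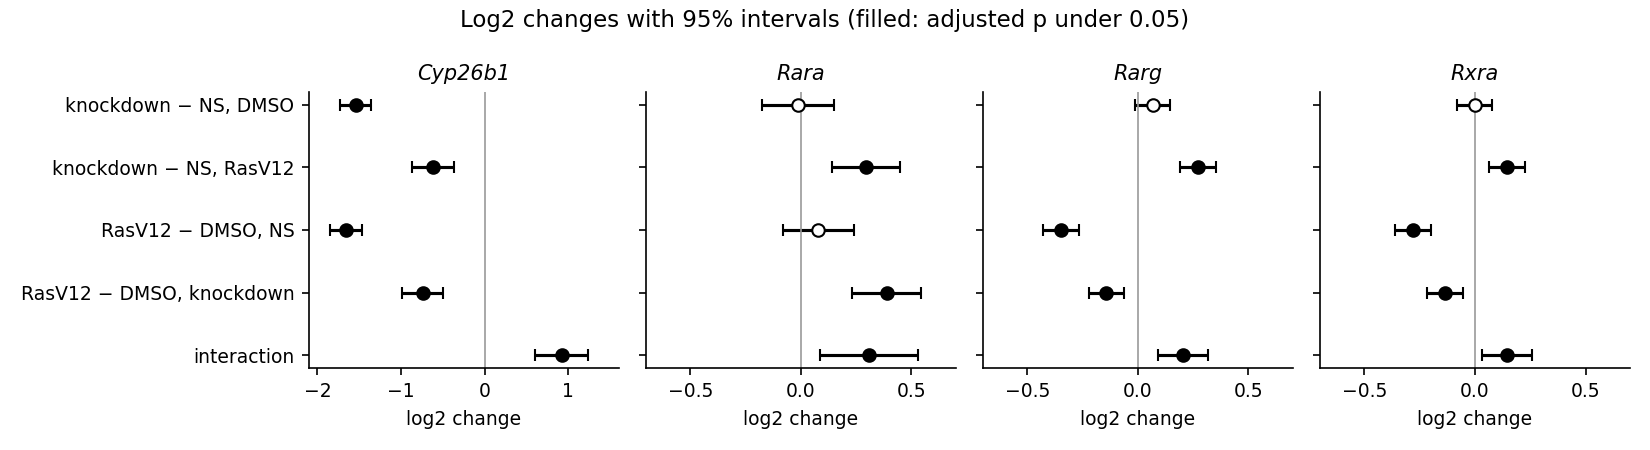
Log2 changes (x axes; the Cyp26b1 axis is wider) of the 4 tested members in the comparisons named on the y axis; points are model estimates, bars 95% intervals, and filled points passed at an adjusted p under 0.05. Cyp26b1 lies below 0 in the first 4 comparisons, from −0.62 to −1.66, and every interaction estimate lies above 0, from 0.15 to 0.92.

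Among the receptors, the composition of RNA per length was as follows. Rarg made up 82.6% ± 0.918 of RAR RNA per kilobase in knockdown RasV12 cells, 82.9% ± 0.871 in NS RasV12, 87.3% ± 0.429 in knockdown DMSO and 86.5% ± 0.428 in NS DMSO (SD, n = 2 each). Rara made up nearly all of the rest, at 17.3% in knockdown RasV12, 17.1% in NS RasV12, 12.7% in knockdown DMSO and 13.3% in NS DMSO cells. The RasV12 libraries had more Rara relative to Rarg than the DMSO libraries, with no overlap; these shares were not tested. Among RXRs, Rxra held 68.4% ± 0.187 in knockdown RasV12, 61.6% ± 0.423 in NS RasV12, 69.1% ± 2.46 in knockdown DMSO and 63.7% ± 0.396 in NS DMSO cells. Rxrb made up the rest, and Rxrg had no counts.

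Rarb, a receptor gene and a known direct target of retinoic acid, had 2.5 and 1 counts in the knockdown RasV12 libraries, 1 and 1.5 in NS RasV12, 1 and 0 in knockdown DMSO, and 10 and 5.5 in NS DMSO. The values are multiples of 0.5 because the table holds estimated counts. Both NS DMSO libraries were above the other 6, as was seen for Cyp26b1. With counts rounded and summed per group, the ratio to NS DMSO (16 counts) was 0.201 for knockdown RasV12 (3 counts, 95% counting interval 0.0375 to 0.702), 0.212 for NS RasV12 (3 counts, 0.0397 to 0.742) and 0.0690 for knockdown DMSO (1 count, 0.00164 to 0.444). Such intervals cover counting error only. The interval for knockdown RasV12 reached 1.04 without its second library and 1.17 without the first NS DMSO library, and that for NS RasV12 reached 1.17 without its first library and 1.24 without the first NS DMSO library. The ratio for knockdown DMSO rests on 1 count, and without the second knockdown DMSO library it was 0.144 (0.00343 to 0.927). In a fit without the count filter, Rarb passed the test for the knockdown under DMSO (log2 change −3.55 ± 1.22, adjusted p = 0.00932) and not for RasV12 in NS cells (−2.14 ± 0.98, adjusted p = 0.0838).

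The synthesising enzymes and carriers gave few counts. Aldh1a3 had 10.5 and 10 counts in knockdown RasV12 libraries, 4.5 and 3 in NS RasV12, 6 and 5 in knockdown DMSO, and 9 and 3 in NS DMSO. Under RasV12 the ratio of knockdown to NS was 2.70 (20 against 7 rounded counts, 95% counting interval 1.10 to 7.56). The interval started at 0.851, 0.959 and 0.771 without the second knockdown RasV12, the first NS RasV12 or the second NS RasV12 library. The fit without the filter gave a log2 change of 1.41 ± 0.69 (adjusted p = 0.0862). Crabp2 had 3 and 0 counts in knockdown RasV12 libraries and 3 and 3.5 in NS RasV12. Under DMSO it had 0.5 and 4 in knockdown and 5 and 4 in NS libraries. In CPM the knockdown DMSO libraries overlapped both RasV12 groups. Both NS DMSO libraries (0.311 and 0.284 CPM) were above all others, but the second knockdown DMSO library reached 0.281. The 95% counting intervals of the ratios to NS DMSO reached 1.43 for knockdown RasV12, 2.66 for NS RasV12 and 1.76 for knockdown DMSO. Aldh1a1 totalled 2.5 counts over all libraries, too few to separate it from its near-identical neighbour Aldh1a7, which had 1. Crabp1 had no count in any library, which allows up to 0.0267 CPM over the 8 libraries (3 counts). Aldh1a2, another retinaldehyde dehydrogenase that makes retinoic acid, also had no count.

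**Figure D3:**
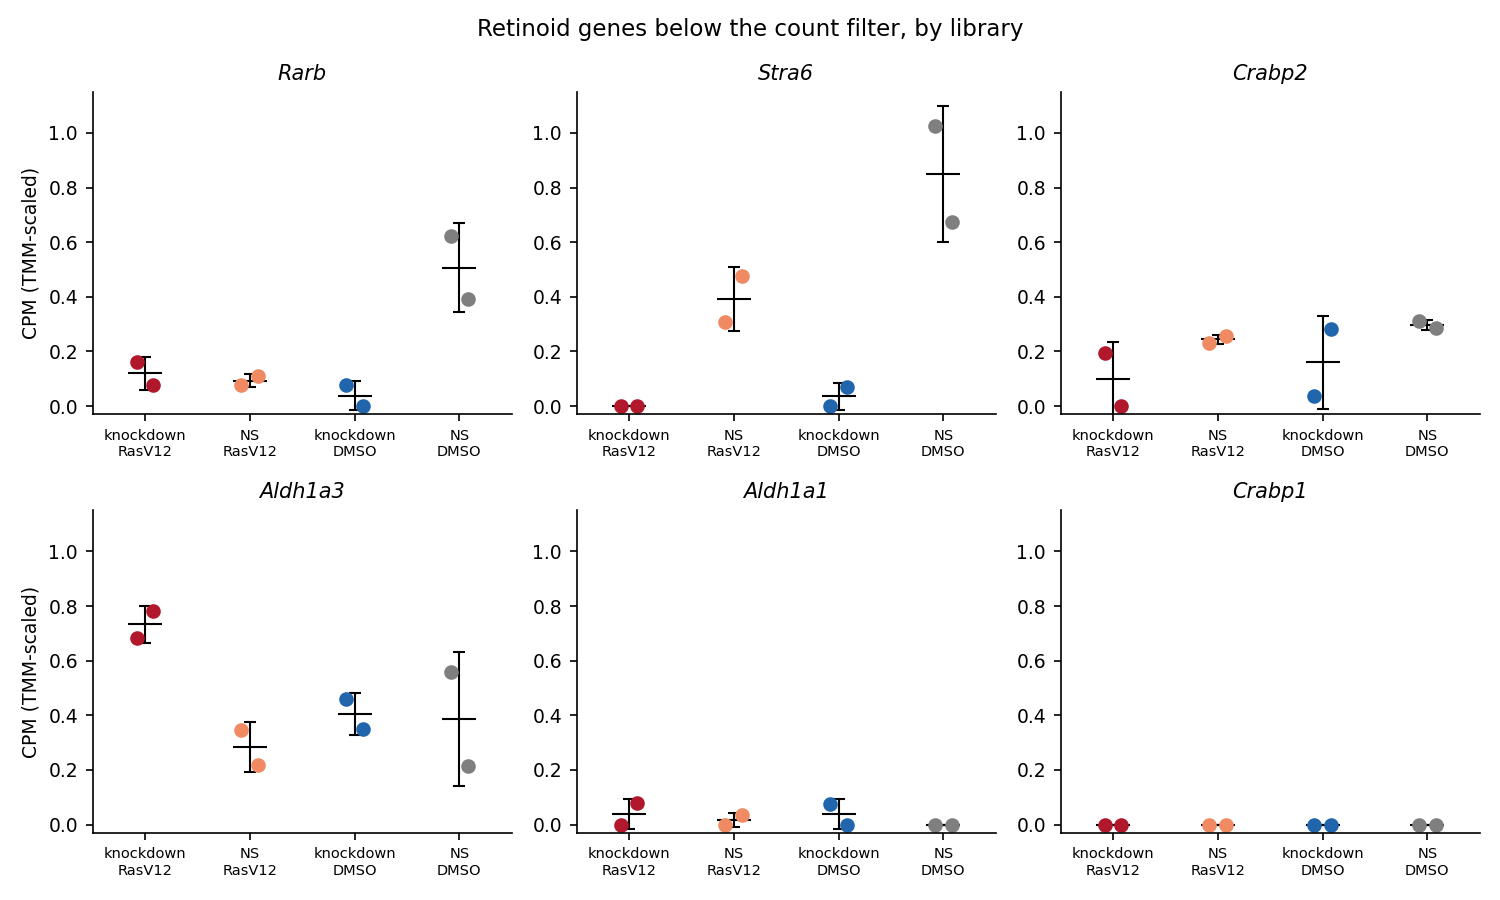
CPM (y axes, common scale) of the 5 members below the count filter and of Stra6, in 8 libraries by group (x axes); points are libraries, horizontal marks the means and bars the SD of 2 libraries. Rarb and Stra6 are highest in both NS DMSO libraries, and Crabp1 is at 0 throughout.

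Of the other retinoid pathway genes listed, 101 were found in the table and 61 passed the filter; Rbp5 was not found by its symbol. The knockdown raised 19 and lowered 21 of the 61 under DMSO, and raised 23 and lowered 16 under RasV12. RasV12 raised 17 and lowered 11 in NS cells, and raised 17 and lowered 5 in knockdown cells. The interaction was positive in 10 and negative in 7. Their median log2 changes lay between −0.062 and 0.10 in these 5 comparisons, and those of all tested genes between −0.0071 and 0.018. For the knockdown, 65.6% of the 61 were called under DMSO and 63.9% under RasV12, near the 61.9% and 60.2% of all genes. For RasV12 in NS cells 45.9% were called, near the 42.1% of all genes. For the interaction 27.9% of the 61 were called, against 38.2% of all genes. For RasV12 in knockdown cells 27.9% were higher and 8.20% lower, against 19.5% and 16.6% of all genes.

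Of 21 listed enzymes that interconvert retinol and retinal, 13 were tested. Under DMSO the knockdown lowered 7 and raised 2, where 31.0% of all genes were lower and 30.9% higher (median log2 change −0.29, against 0.00049 over all genes). Dhrs3, the reductase that returns retinal to retinol, had 5.44 and 5.43 CPM in knockdown RasV12 libraries, 8.26 and 8.79 in NS RasV12, 6.76 and 6.75 in knockdown DMSO, and 19.4 and 18.5 in NS DMSO. As for Cyp26b1, the NS DMSO libraries stood far above the rest and the knockdown RasV12 libraries below all others. The summed keratinocyte and basal markers, though not every one of them, had the same highest and lowest group; their part was not tested. Its log2 change was −1.49 ± 0.12 for the knockdown under DMSO (adjusted p = 1.13e-11), −1.15 ± 0.11 for RasV12 in NS cells (adjusted p = 2.15e-09) and −0.30 ± 0.15 for RasV12 in knockdown cells (adjusted p = 0.128), with an interaction of 0.85 ± 0.19 (adjusted p = 0.000741). Dhrs3 overlaps Vps13d in the RefSeq annotation, and without a known strand setting their reads may be mixed.

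Adh7, an alcohol dehydrogenase of surface epithelia that oxidises retinol, fell in all 4 single comparisons. It had 4.17 and 5.04 CPM in knockdown RasV12 libraries, 24.2 and 19.8 in NS RasV12, 10.2 and 9.42 in knockdown DMSO and 34.7 and 35.9 in NS DMSO, with no overlap. The knockdown changed it by −1.85 ± 0.10 under DMSO (adjusted p = 1.3e-14) and −2.27 ± 0.14 under RasV12 (adjusted p = 4.74e-14); the interaction, −0.42 ± 0.19, did not pass (adjusted p = 0.0779). Akr1b8, an aldo-keto reductase, went the other way, with 29.5 and 30.5 CPM in knockdown RasV12 libraries, 19.0 and 19.1 in NS RasV12, 19.5 and 21.3 in knockdown DMSO, and 9.58 and 7.60 in NS DMSO. It rose by 1.24 ± 0.11 with the knockdown under DMSO (adjusted p = 2.39e-10) and by 1.14 ± 0.11 with RasV12 in NS cells (adjusted p = 4.61e-09). Rdh10, the main retinol dehydrogenase of embryos, had 31.4 to 43.4 CPM in all libraries and was lower with RasV12 in NS cells (−0.30 ± 0.07, adjusted p = 0.00182), a call lost without the first NS RasV12 or the second NS DMSO library (adjusted p = 0.065 and 0.0515). Cyp1b1, a cytochrome that can oxidise retinol, had 372 to 576 CPM and was higher in knockdown than in NS cells under DMSO (0.37 ± 0.04, adjusted p = 1.47e-09) and under RasV12 (0.58 ± 0.04, adjusted p = 1.97e-13).

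Genes of uptake and storage were mostly below the filter. Of 18 in the table, 7 were tested and 4 were at 0 in all libraries, among them Lrat, which esterifies retinol for storage. Scarb1, a lipoprotein and carotenoid receptor, was higher with the knockdown under DMSO (0.35 ± 0.04, adjusted p = 8.17e-08) and under RasV12 (0.34 ± 0.04, adjusted p = 1.51e-07). Fabp5, which carries retinoic acid to other nuclear receptors, rose by 0.43 ± 0.10 (adjusted p = 0.000552) and 0.34 ± 0.09 (adjusted p = 0.00335) in the same comparisons. Stra6, the retinol importer, was below the filter and was chosen after its values were seen. It had 0 and 0 CPM in knockdown RasV12 libraries, 0.309 and 0.476 in NS RasV12, 0 and 0.0703 in knockdown DMSO and 1.03 and 0.675 in NS DMSO. Against the 26 rounded counts of NS DMSO, the 0 counts of knockdown RasV12 were 8.09-fold lower at a group floor of 3 counts. The 95% counting interval of that comparison starts at 6.12-fold. The 1 count of knockdown DMSO gave a ratio to NS DMSO of 0.0424 (95% counting interval 0.00104 to 0.258), and the 10 counts of NS RasV12 a ratio of 0.436 (0.188 to 0.934). The last interval reached 1.27, 1.03 and 1.42 without the first NS RasV12, the second NS RasV12 or the first NS DMSO library. Leaving out 1 library left the fold at the floor between 3.68 and 9.34 and the ratio for knockdown DMSO at or below 0.0815. Stra6 overlaps Ccdc33.

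**Figure D4:**
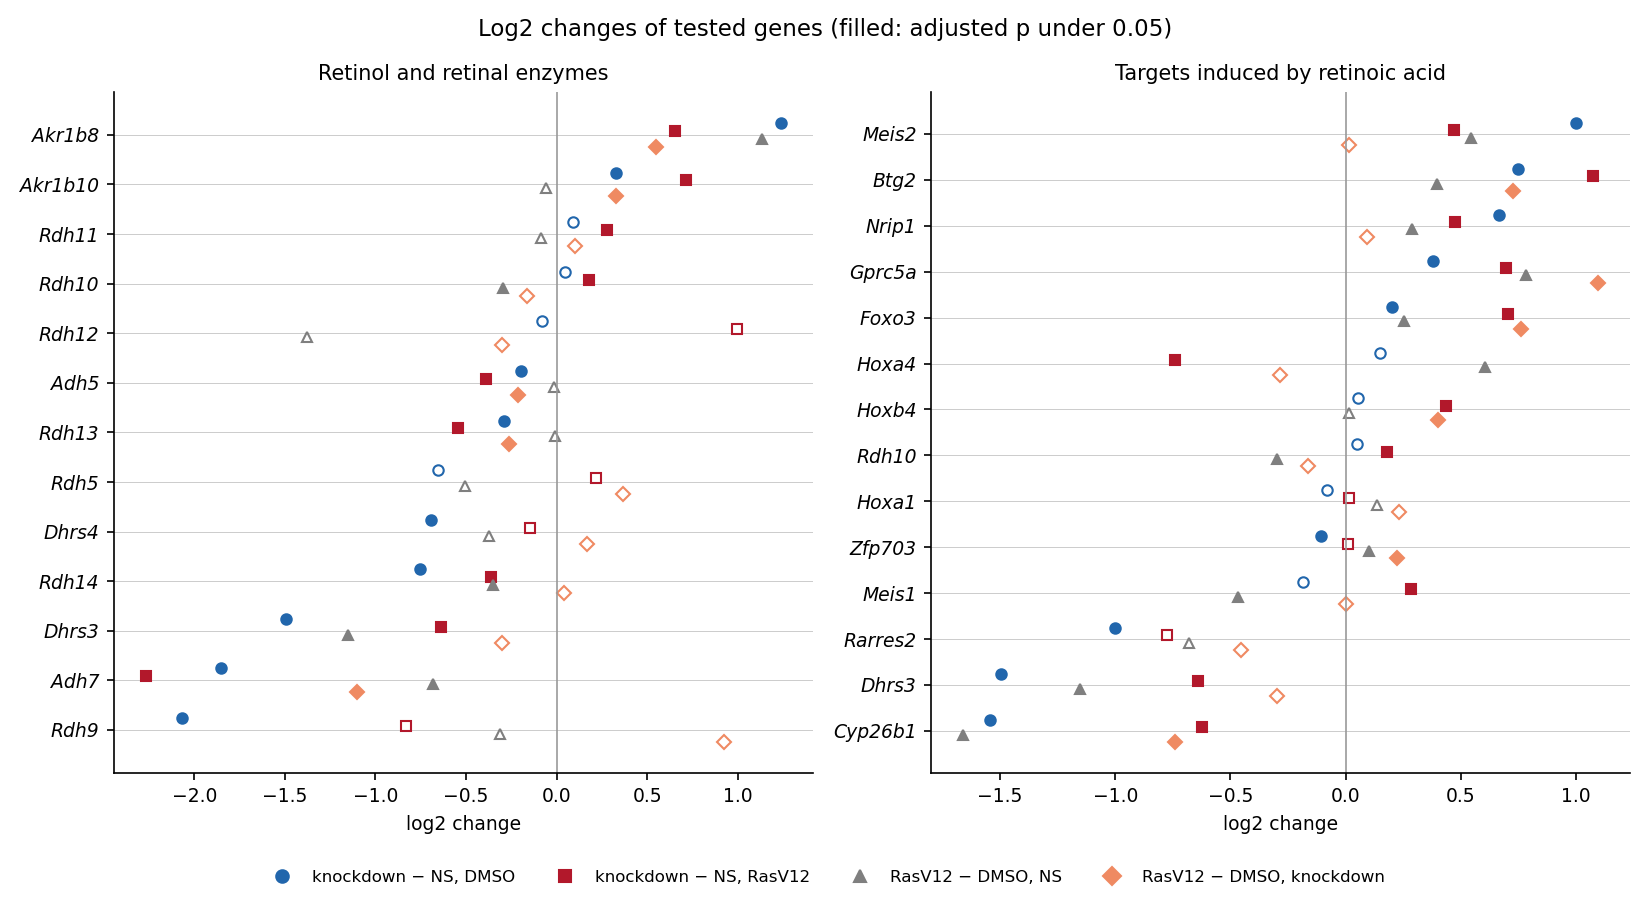
Log2 changes (x axes) of the tested genes on the lists of retinol and retinal enzymes (left) and of known retinoic acid targets (right, all but 1 of those tested) with Cyp26b1, 1 gene per row, in 4 comparisons by marker; filled markers passed at an adjusted p under 0.05. Cyp26b1, Dhrs3 and Adh7 lie to the left in all 4 comparisons, from −0.30 to −2.27, while Akr1b8, Btg2 and Gprc5a lie to the right, from 0.38 to 1.24.

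Genes known to be induced by retinoic acid, members aside, were called in both directions except with RasV12 in knockdown cells, where all calls were higher. Of 27 listed besides the members, 14 were tested; the knockdown raised 5 and lowered 4 under DMSO (30.9% and 31.0% of all genes) and raised 8 and lowered 3 under RasV12 (30.5% and 29.7%). RasV12 raised 8 and lowered 3 in NS cells (20.8% and 21.3%) and raised 6 and lowered none in knockdown cells (19.5% and 16.6%). Meis2, a homeodomain factor, had 41.3 and 42.7 CPM in knockdown RasV12 libraries, 31.4 and 29.3 in NS RasV12, 42.2 and 40.9 in knockdown DMSO, and 20.3 and 21.3 in NS DMSO. It rose with the knockdown under DMSO by 1.00 ± 0.07 (adjusted p = 3.94e-12), opposite to Cyp26b1 and Dhrs3. Btg2, an antiproliferative gene, rose by 0.75 ± 0.10 (adjusted p = 4.53e-07) under DMSO and by 1.08 ± 0.09 (adjusted p = 5.97e-11) under RasV12. Gprc5a, an orphan receptor gene known to be induced by retinoic acid, rose with RasV12, by 1.10 ± 0.07 in knockdown cells (adjusted p = 3.19e-12) and by 0.78 ± 0.08 in NS cells (adjusted p = 7.2e-09).

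Among 12 tested RXR genes and partners of RXR, the knockdown under DMSO lowered 6 and raised 3 (31.0% and 30.9% of all genes). Rxrb, another RXR, was lower with the knockdown under DMSO (−0.34 ± 0.06, adjusted p = 3.24e-05) and under RasV12 (−0.29 ± 0.07, adjusted p = 0.00047). Ppard, a fatty acid receptor known to act in keratinocyte differentiation, had 85.3 and 83.1 CPM in knockdown RasV12 libraries, 54.7 and 58.3 in NS RasV12, 65.2 and 67.1 in knockdown DMSO, and 41.6 and 43.8 in NS DMSO. It rose by 0.63 ± 0.06 with the knockdown under DMSO (adjusted p = 4.1e-10) and by 0.40 ± 0.06 with RasV12 in NS cells (adjusted p = 4.06e-06). Nr1h4, the bile acid receptor, fell by 2.44 with the knockdown under DMSO (log2 change −2.44 ± 0.32, adjusted p = 2.06e-07) and had 0.726 and 0.703 CPM in knockdown DMSO and 4.79 and 3.09 CPM in NS DMSO libraries.

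Of 17 tested coregulators, the knockdown raised 7 and lowered 4 under DMSO (30.9% and 31.0% of all genes), and raised 6 and lowered 4 under RasV12 (30.5% and 29.7%). Ncoa3, a coactivator of nuclear receptors, rose by 0.47 ± 0.05 (adjusted p = 9.46e-10) and 0.57 ± 0.05 (adjusted p = 2e-11). Nrip1, which dampens receptor activity and is itself induced by retinoic acid, rose by 0.67 ± 0.07 (adjusted p = 6.57e-07) and 0.47 ± 0.07 (adjusted p = 2.69e-05). Ezh2, a histone methyltransferase, was lower with the knockdown under RasV12 (−0.65 ± 0.04, adjusted p = 3.99e-14) and, less so, under DMSO (−0.21 ± 0.04, adjusted p = 2.66e-05). With RasV12 it was higher in NS cells (0.29 ± 0.04, adjusted p = 3.63e-07) and lower in knockdown cells (−0.15 ± 0.04, adjusted p = 0.00439).

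Genes with the pattern most like a member's were taken among 11677 other tested genes, with predicted genes and small RNAs left out by name. The measure was the distance between centred log2 profiles over the 8 libraries. The floor of 1 CPM on average applied to the members compared, not to the genes searched. For Cyp26b1 the closest was Chst15, a sulfotransferase (root mean square distance 0.143 log2 units), with mean levels of 2.39 CPM in knockdown RasV12, 4.08 in NS RasV12, 4.03 in knockdown DMSO and 11.2 in NS DMSO cells. Ackr3, a chemokine scavenger receptor, and C1s1 followed at 0.186 and 0.213. For Rarg the closest were Myo1c, Pard6g and Rrp7a (0.0387 to 0.0445), and for Rara they were Adipor2, Alkbh5 and Lsm10 (0.0460 to 0.0523). The smaller distances of the receptors' neighbours go with the smaller range of the receptors themselves, 0.41 and 0.39 log2 units for Rarg and Rara against 2.27 for Cyp26b1.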

How the data were processed

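Total RNA of ASZ001 cells (RNeasy) was sequenced from TruSeq libraries, per the labels. What the authors deposited is a table of expected counts by gene without normalization; the submitters' processing notes name TopHat, HOMER, DESeq2 and the mouse build mm9. Tool versions, strand setting and how multiply mapped reads were handled stay unknown, being not given in the sources used here. The table has 24909 entries; 2 entries with a repeated symbol were dropped, which left 24907, and 26 symbols that read as dates are not named. Of the values, 29.1% were not whole, so they were rounded before testing. The authors' table also gives gene lengths, by which CPM were divided for levels per kilobase.

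All 8 libraries entered 1 model in edgeR 4.0.16 (R 4.3.3) with a mean per group, TMM factors (0.981 to 1.02) and 4 residual degrees of freedom. The filter filterByExpr kept 12538 genes and left out 12369. The quasi-likelihood F test (robust) was two-sided, with the Benjamini-Hochberg method over the 12538 genes and a threshold of 0.05. CPM use the TMM factors, and SDs are over 2 libraries. Levels of the sparse genes rest on counts, with exact binomial intervals at 95% and a floor of 3 counts. Library totals of 12724325.5 to 16233011 limit the precision for genes of few counts. Replicates of a group differed by more than sampling noise (chi-square per degree of freedom from 2.28 to 12.7), so none was treated as deposited more than once. The fits were also run on simulated counts with 1 common spread for all genes (biological coefficient of variation 3.37%). They recovered 85.6% of planted changes of 0.5 log2 and 91% of those of 1 log2, with 2.79% of calls false. Genes that vary more than this spread were not covered.

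The members and lists were chosen with earlier results of these data known. All 9 members are named; of the other lists, genes past the test in at least 1 comparison, by smallest p, at most 4 a list and comparison, and the 2 most abundant otherwise. A gene that this rule names is not reported here. Alternatives were DESeq2 1.42.0, RLE factors, library totals only, no count filter, only the groups compared, a replicate block, leaving out Rn45s, and leaving out each library. Promoters are the RefSeq windows of GRCm38.p6, used for sequence only.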

Additional observations from a re-analysis of the deposited data

Results flagged for a closer look

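The RasV12 response differed between knockdown and NS cells in each of the 4 tested members, by the test of the interaction (edgeR's quasi-likelihood test, knockdown response minus NS response, log2). It was 0.92 for Cyp26b1, 0.31 for Rara, 0.20 for Rarg and 0.15 for Rxra, where 38.2% of all tested genes were called. The calls of Rara and Rxra were lost with DESeq2 (adjusted p = 0.158 and 0.162) and without single libraries.

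Of 61 other tested retinoid pathway genes, 27.9% were called for the interaction (38.2% of all genes), 10 positive and 7 negative (20.2% and 18%). Of those named by the rule, it was positive for Dhrs3 (0.85), Nr4a2 (0.85), Foxo3 (0.51), Nr1h2 (0.39), Thra (0.33), Retsat (0.33) and Cyp1b1 (0.21). It was negative for Hoxa4 (−0.89), Akr1b8 (−0.58), Meis2 (−0.53), Ezh2 (−0.44), Rdh13 (−0.26), Adh5 (−0.20) and Med1 (−0.17). The calls of Thra, Rdh13, Adh5 and Med1 were lost with DESeq2 (adjusted p = 0.0947 for Thra, 0.245 for Rdh13, 0.188 for Adh5 and 0.212 for Med1) and without single libraries.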

How the results depend on the processing

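Of 388 recomputed member changes, 363 kept direction and side of the threshold. With DESeq2, 2 members passed for RasV12 in knockdown cells and 2 for the interaction, and the genes called over the whole table numbered 3265 for RasV12 in NS cells, 2628 for RasV12 in knockdown cells and 2828 for the interaction. Without the count filter 2 members passed for the knockdown under DMSO (Rarb with Cyp26b1). Leaving out 1 library, 2 to 4 members passed for the interaction. The uncalled differences for the knockdown under DMSO turned direction without single libraries, from −0.068 to 0.057 for Rara and from −0.016 to 0.034 for Rxra, and Rxra was 0.010 without the filter. Knockdown alone minus RasV12 alone for Cyp26b1 ranged from −0.0060 to 0.27. Levels moved by more than their SD for Rarg (165 CPM in knockdown RasV12 and 140.4 in NS RasV12 with library totals only; 141 in NS RasV12 and 188 in knockdown DMSO without Rn45s) and for Rxra (knockdown RasV12: 196 with RLE factors, 192 with totals only, 197 without Rn45s; NS DMSO: 213 with totals only, 218 without Rn45s). The causes were not tested. Same-numbered libraries did not deviate together (correlations from −0.023 to 0.033 across genes). Such correlations cannot show whether these libraries share a culture or preparation, which is not stated. With a replicate block the genes called numbered 7777 and 7554 for the knockdown under DMSO and RasV12. They numbered 5319 and 4559 for RasV12 in NS and knockdown cells and 4814 for the interaction, and no member's call changed. Depth limits Rarb, Stra6, Aldh1a1, Aldh1a3, Crabp1 and Crabp2.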
